A study of Homo sapiens with 4 samples.

Results

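The autophagy core and receptor genes are 40 named genes that build the autophagosome or tie cargo to it. They were taken by name from the count table, in which 39 of the 40 carry their symbol and ATG4C, whose name cell is empty, was found by its identifier in the reference annotation. The table lists 64253 genes, 28748 of which had a count in any library. All 40 were counted in all 4 libraries, at 108 to 55440 counts, and all 40 passed the filter on low counts, as did 17459 genes in all.

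RNA was sequenced from A549 cells, an established human lung adenocarcinoma line. The cells were transfected with pENTER-NFATc2 (the NFATc2 group, 2 libraries) or with pENTER-NFATc2M (the NFATc2M group, 2 libraries), whose product has a deletion in its DNA binding domain and serves as a loss-of-function form. Both groups were cultured in OPNc-CM, conditioned medium that holds the secreted osteopontin isoform OPNc made by transfected HEK-293 T cells, so neither group is free of OPNc. The comparison asks which transcripts differ when the transfected NFATc2 can bind DNA.

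The plasmids were delivered by lipofection into a single line, no deletion of the endogenous NFATC2 gene is described, and no untransfected library was analysed here. In bulk RNA, fewer cells carrying a transcript and less transcript per cell cannot be told apart. Separate cultures are not named for the replicates in the labels, so p-values here reflect a library-to-library spread that may be technical. Reads assigned to genes numbered 21830690 and 23527259 for NFATc2, against 21011786 and 21372469 for NFATc2M. NFATC2 itself had 47791 and 58522 counts in NFATc2 libraries, against 54601 and 52689 in NFATc2M libraries, and a count over the whole gene cannot tell the wild type from the deleted transcript. Of 8 markers of A549 epithelium, all were tested and none was called by edgeR (1 at an unadjusted p under 0.05), DESeq2 or limma voom. In an edgeR fit with an offset for GC content and exonic length, 1 of the 8, KRT18, was called higher (log2 fold change 0.42, adjusted p = 0.014). The 3 genes deleted in this line had at most 7 counts. Of 6 markers of HEK-293 T cells, the source of the medium, 5 were tested and none was called by the same tools (0 at an unadjusted p under 0.05). A gene to which DESeq2 gave no adjusted p counts here and below as not called by it. Levels differed widely within both lists. Single libraries ran from 6 counts (NAPSA) to 89219 (ALDH1A1) for the A549 markers, with EPCAM at 48 to 70. For the HEK-293 T markers they ran from 0 (STMN2) to 1864 (INA), and INA had at least 1405 counts in every library. The source of the INA reads was not tested.

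Macroautophagy encloses cytoplasm in a double membrane that later fuses with the lysosome. The ULK1 kinase complex starts it, a class III PI3-kinase complex lays down the lipid PI3P, ATG9 and ATG2 proteins supply membrane, and 2 ubiquitin-like systems attach ATG8 proteins (the LC3 and GABARAP families) to that membrane. Receptors such as SQSTM1 (p62) hold ubiquitinated cargo and bind ATG8 proteins. Much of the process is set by phosphorylation and lipid conjugation, which transcript counts do not measure.

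Promoter sequence was taken from RefSeq (GRCh38.p14), in windows of 300 bases from 250 before to 50 after the annotated start, and 35 of the 40 genes had one. The following windows belong to the gene that rose, the gene that fell and the gene with the highest fold change of the 40, and capitals mark a match to CACGTG (the E-box core found in the CLEAR element that TFEB binds) or to GGAAA (the core that NFAT proteins recognise, read on either strand). They lie at chr16:87392086-87392385 on the plus strand (MAP1LC3B), chrX:49101129-49101428 on the minus strand (WDR45) and chr14:55411781-55412080 on the minus strand (ATG14).
MAP1LC3B: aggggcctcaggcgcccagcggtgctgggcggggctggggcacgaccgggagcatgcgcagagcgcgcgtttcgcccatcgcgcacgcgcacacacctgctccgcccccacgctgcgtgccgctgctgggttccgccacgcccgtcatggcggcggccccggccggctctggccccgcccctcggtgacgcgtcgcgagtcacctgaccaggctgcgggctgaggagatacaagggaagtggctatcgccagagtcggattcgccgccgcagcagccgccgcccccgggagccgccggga
WDR45: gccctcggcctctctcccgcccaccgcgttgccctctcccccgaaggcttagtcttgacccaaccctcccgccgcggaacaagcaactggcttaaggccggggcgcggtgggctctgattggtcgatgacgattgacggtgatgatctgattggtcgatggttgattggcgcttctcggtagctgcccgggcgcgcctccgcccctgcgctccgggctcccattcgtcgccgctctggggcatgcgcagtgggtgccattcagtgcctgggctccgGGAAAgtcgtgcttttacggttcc
ATG14: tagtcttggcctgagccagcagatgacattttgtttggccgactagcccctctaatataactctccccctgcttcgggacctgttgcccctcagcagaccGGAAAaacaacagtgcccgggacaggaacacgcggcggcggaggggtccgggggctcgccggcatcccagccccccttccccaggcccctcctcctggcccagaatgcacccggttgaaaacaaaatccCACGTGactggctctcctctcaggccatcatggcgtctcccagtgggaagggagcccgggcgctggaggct

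The MAP1LC3B window held no match to either motif, that of WDR45 held 1 GGAAA, and that of ATG14 held 1 CACGTG and 1 GGAAA. Over the 35 windows, CACGTG was present in 2 (5.71%; ATG14 and ATG3), beside 7.26% of all 35116 promoter windows of this length. GGAAA was present in 19 (54.3%), beside 61.2% of all windows. TGACTCA or TGAGTCA, the site of AP-1, a common partner of NFAT proteins, was present in none of the 35, beside 4.95% of all windows. Matches of different motifs may share letters, each motif was searched on both strands, and a match is a description of the letters only. The 35 windows had a median GC content of 64.7%, against 58.7% for all windows.

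Of the 40 genes, MAP1LC3B was called higher with NFATc2 and WDR45 was called lower. A call means an adjusted p under 0.05 from edgeR's quasi-likelihood test over all genes and an absolute log2 fold change (NFATc2 over NFATc2M) of at least 0.26. These 2 calls are 5.00% of the genes, beside a background of 8.64% of all tested genes called, 4.90% higher and 3.73% lower (856 and 652 genes, against 662 and 864 with upper quartile scaling). At an unadjusted p under 0.05 there were 13 of the 40, 9 higher and 4 lower, beside 23.3% of all tested genes. The share called among the 40 genes was thus not above that of all genes, while their share at the unadjusted p was above it. Neither difference in share was tested. DESeq2 called MAP1LC3B alone, beside 3.56% of the genes it was given, and limma voom called both, beside 9.71%. Some members, ATG4A, ATG4C and MAP1LC3A among them, had no adjusted p in DESeq2 and could not be called there. The median log2 fold change of the 40 genes was 0.06, against 0.00061 over all tested genes. The median of its absolute value was 0.23, against 0.23 over all tested genes.

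In CPM (counts scaled to the TMM-normalized library size), both NFATc2 libraries stood above both NFATc2M libraries for 16 of the 40, beside a background of 27.2%, and below both for 8, beside 26.0%. The libraries of the groups overlapped for the other 16. Standard errors of the 40 log2 fold changes ran from 0.10 to 0.24, and for 27 of the 40 the 95% interval lay within 1.5-fold in either direction.

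**Figure D1:**
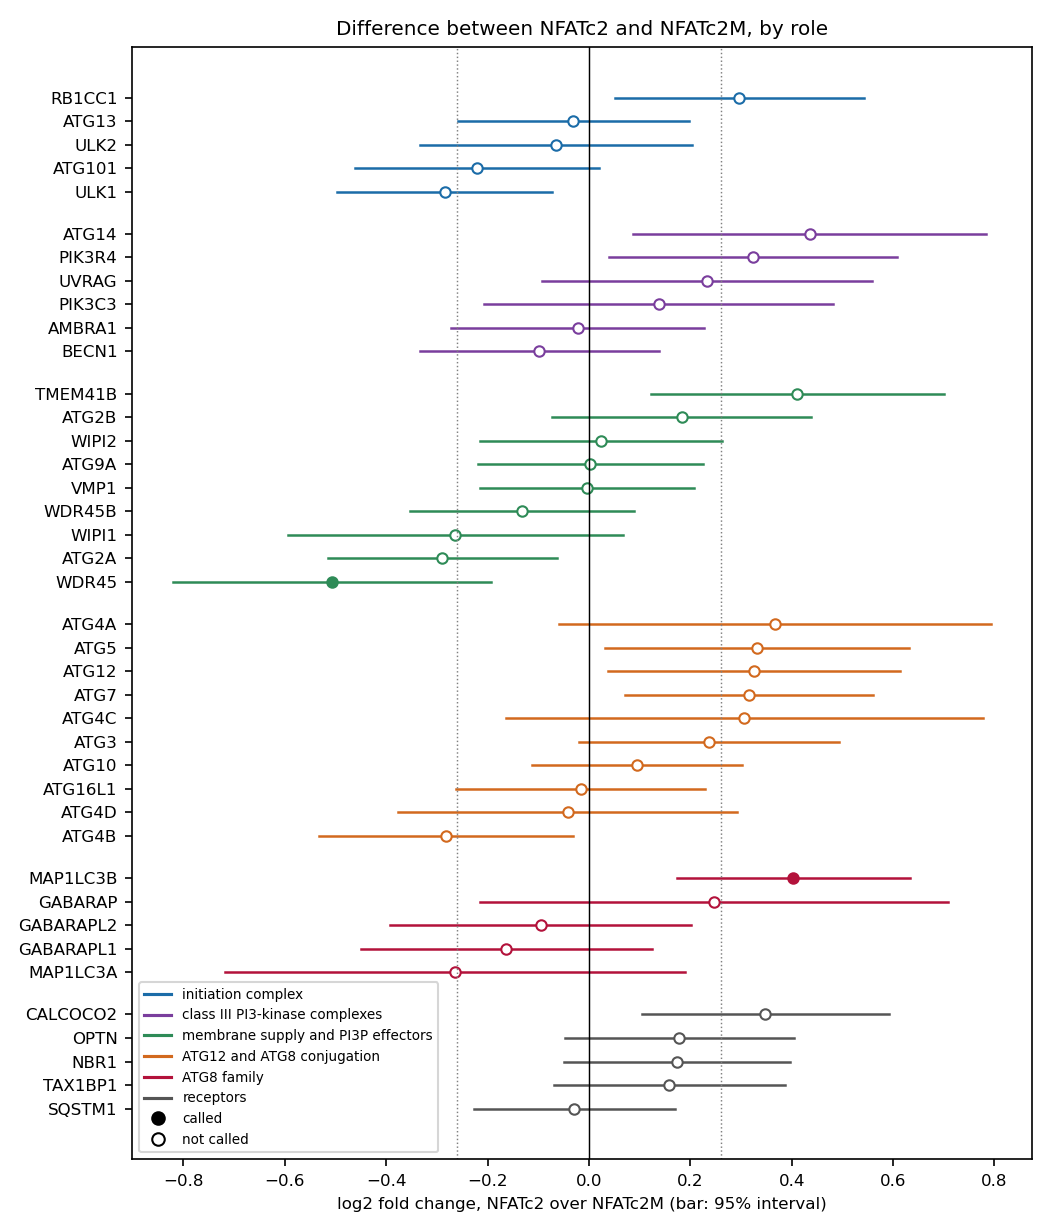
Log2 fold change of NFATc2 over NFATc2M for each of the 40 genes, grouped by role, with 95% intervals from the edgeR fit on 2 libraries a group; the dotted lines mark 0.26 on either side of 0. Filled points are called: MAP1LC3B at 0.40 and WDR45 at -0.51.

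MAP1LC3B encodes LC3B, the ATG8 protein most used as a marker of autophagosomes, and lies on chromosome 16 from 87383953 to 87404779 on the plus strand of GRCh38. It had 2016 and 2707 counts in NFATc2 libraries, against 1591 and 1809 in NFATc2M libraries, or 93.3 and 117 CPM with NFATc2 and 75.2 and 83.6 CPM with NFATc2M. The groups did not overlap, and NFATc2 replicate 2 was the highest library. The means were 105 ± 16.5 CPM with NFATc2 and 79.4 ± 5.93 CPM with NFATc2M (SD, n = 2 each), a log2 fold change of 0.40 (standard error, SE, 0.12; 95% interval 0.17 to 0.63; adjusted p = 0.016 from edgeR). The call was lost without NFATc2 replicate 2 (0.23, adjusted p = 0.55) and without NFATc2M replicate 1 (0.32, adjusted p = 0.38). It held in DESeq2, where the adjusted p was 0.036. Only 1.19% of its exonic bases are shared with a gene on the opposite strand, FBXO31, and its near-identical copy MAP1LC3B2 had 2 counts in NFATc2 replicate 1 and 0 counts in each other library.

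The rest of the ATG8 family did not pass the test. MAP1LC3A, the LC3A gene, had 6.57 and 6.72 CPM with NFATc2, against 7.37 and 8.59 CPM with NFATc2M, a log2 fold change of -0.26 (interval -0.72 to 0.19, adjusted p = 0.52 from edgeR). GABARAPL1 had 32.0 and 27.8 CPM with NFATc2, against 33.9 and 33.0 CPM with NFATc2M, and GABARAPL2 had 28.5 and 25.3 CPM with NFATc2, against 27.3 and 30.2 CPM with NFATc2M. The LC3A and GABARAPL1 libraries of the NFATc2 group both lay below those of the NFATc2M group, while GABARAPL2 overlapped. GABARAP, the founding member of its subfamily, had 9.90 and 6.12 CPM with NFATc2, against 7.75 and 5.73 CPM with NFATc2M, and 35.4% of its exonic bases belong to a further gene model on the same strand, so its counts are uncertain. Per length of exon, MAP1LC3B made up 39.7% and 48.9% of the family's summed CPM per kb in NFATc2 libraries, against 34.9% and 36.7% in NFATc2M libraries. GABARAPL2 came next in every library, at 17.8% to 22.2%.

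WDR45 encodes WIPI4, a beta-propeller protein that binds PI3P and ATG2, and lies on chromosome X from 49074433 to 49101170 on the minus strand. It had 391 and 494 counts in NFATc2 libraries, against 633 and 564 in NFATc2M libraries, or 18.1 and 21.3 CPM with NFATc2 and 29.9 and 26.1 CPM with NFATc2M. The groups did not overlap. The means were 19.7 ± 2.26 CPM with NFATc2 and 28.0 ± 2.73 CPM with NFATc2M (SD, n = 2 each), a log2 fold change of -0.51 (SE 0.16, interval -0.82 to -0.19, adjusted p = 0.028 from edgeR). In DESeq2 the adjusted p was 0.052, so the call ended there. It was also lost without NFATc2 replicate 1 (-0.39, adjusted p = 0.29), NFATc2 replicate 2 (-0.64, adjusted p = 0.091) or NFATc2M replicate 1 (-0.41, adjusted p = 0.41). Of its exonic bases, 14.4% belong to a further gene model on the same strand.

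The other 3 PI3P-binding genes of the WIPI family did not pass. WDR45B (WIPI3), the paralog of WDR45, had 103 and 121 CPM with NFATc2, against 121 and 125 CPM with NFATc2M, and the libraries overlapped. WIPI1 had 18.7 and 17.3 CPM with NFATc2, against 23.3 and 19.9 CPM with NFATc2M, a log2 fold change of -0.26 (interval -0.59 to 0.07, adjusted p = 0.35 from edgeR). WIPI2, which recruits ATG16L1, had 68.8 and 64.9 CPM with NFATc2, against 64.8 and 66.7 CPM with NFATc2M. Its log2 fold change of 0.02 (interval -0.21 to 0.26) turned sign with upper quartile or library size scaling and without either replicate 1.

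Among the genes that supply membrane, TMEM41B, a scramblase of the endoplasmic reticulum, had 43.4 and 31.7 CPM with NFATc2, against 27.3 and 29.2 CPM with NFATc2M. Both NFATc2 libraries were higher, replicate 1 by far the most, and the log2 fold change of 0.41 (SE 0.15) missed the threshold (adjusted p = 0.058 from edgeR). It was 0.17 (adjusted p = 0.68) without NFATc2 replicate 1, and was called without NFATc2 replicate 2 (0.62, adjusted p = 0.046). The lipid transfer proteins ATG2A and ATG2B are paralogs. ATG2A had 85.1 and 90.0 CPM with NFATc2, against 112 and 101 CPM with NFATc2M (log2 fold change -0.29, SE 0.11, adjusted p = 0.095 from edgeR). ATG2B had 50.4 and 55.1 CPM with NFATc2, against 47.2 and 45.8 CPM with NFATc2M (0.18, SE 0.13, adjusted p = 0.41). Neither pair of groups overlapped, with ATG2A lower and ATG2B higher in NFATc2 libraries. VMP1, another scramblase, had 226 and 217 CPM with NFATc2, against 198 and 245 CPM with NFATc2M. ATG9A, a scramblase that travels in vesicles, had 108 and 126 CPM with NFATc2, against 124 and 111 CPM with NFATc2M, and 38.8% of its exonic bases lie in a further gene model. Both had overlapping groups.

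None of the 5 genes of the initiation complex was called by edgeR (2 at an unadjusted p under 0.05), DESeq2 or limma voom. ULK1, the kinase that starts autophagy, had 170 and 190 CPM with NFATc2, against 235 and 203 CPM with NFATc2M, and the groups did not overlap. Its log2 fold change was -0.28 (SE 0.11, adjusted p = 0.077 from edgeR), and it was called with upper quartile scaling (-0.32, adjusted p = 0.047). Its paralog ULK2 had 37.2 and 40.4 CPM with NFATc2, against 38.9 and 42.3 CPM with NFATc2M. RB1CC1 (FIP200), the scaffold of the complex, had 67.0 and 70.4 CPM with NFATc2, against 49.4 and 62.4 CPM with NFATc2M, a log2 fold change of 0.30 (SE 0.12, adjusted p = 0.12 from edgeR). ULK1 and its scaffold thus had fold changes of opposite sign, and neither passed. ATG101, which binds and steadies ATG13, had 68.7 and 61.3 CPM with NFATc2, against 85.2 and 66.2 CPM with NFATc2M, with overlap and a log2 fold change of -0.22 (adjusted p = 0.26 from edgeR).

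None of the 6 genes of the class III PI3-kinase complexes was called by edgeR (2 at an unadjusted p under 0.05), DESeq2 or limma voom. ATG14, the subunit that directs the kinase to autophagosome formation, had the highest fold change of the 40 genes but few counts, with 438 and 410 in NFATc2 libraries, against 281 and 319 in NFATc2M libraries. These are 20.3 and 17.7 CPM with NFATc2 and 13.3 and 14.7 CPM with NFATc2M, without overlap. The log2 fold change was 0.44 (SE 0.18, interval 0.09 to 0.78, adjusted p = 0.105 from edgeR). FBXO34 on the opposite strand covers 20.8% of its exonic bases. PIK3R4 (VPS15), the regulatory subunit, had 35.9 and 36.4 CPM with NFATc2, against 29.7 and 28.0 CPM with NFATc2M (0.32, SE 0.14, adjusted p = 0.15 from edgeR). BECN1 (beclin 1) had 68.3 and 67.9 CPM with NFATc2, against 69.0 and 76.7 CPM with NFATc2M (-0.10, interval -0.33 to 0.14, adjusted p = 0.68 from edgeR). The kinase PIK3C3 (VPS34) itself had 19.6 and 18.7 CPM with NFATc2, against 13.7 and 21.1 CPM with NFATc2M, which overlap.

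None of the 10 genes of ATG12 and ATG8 conjugation was called by edgeR (4 at an unadjusted p under 0.05), DESeq2 or limma voom. DESeq2 gave no adjusted p for ATG4A and ATG4C, so it could not call them. A positive fold change was seen in 7 of the 10, beside 22 of all 40 members. ATG7, the E1-like enzyme of both systems, had 62.0 and 73.8 CPM with NFATc2, against 56.1 and 53.0 CPM with NFATc2M, a log2 fold change of 0.32 (SE 0.12, adjusted p = 0.093 from edgeR). VGLL4 on the opposite strand covers 18.1% of its exonic bases. ATG5, which ATG12 is joined to, had 29.0 and 31.8 CPM with NFATc2, against 22.3 and 26.0 CPM with NFATc2M (0.33, adjusted p = 0.16). ATG12 had 38.2 and 32.7 CPM with NFATc2, against 25.7 and 30.8 CPM with NFATc2M (0.33, adjusted p = 0.15). ATG3, the E2-like enzyme for ATG8 proteins, had 57.2 and 49.9 CPM with NFATc2, against 46.7 and 44.1 CPM with NFATc2M (0.24, adjusted p = 0.26). In these 4 genes the NFATc2 libraries were the higher ones without overlap, and the tests did not pass. Of all 10 genes, 6 had both NFATc2 libraries higher, 1 had both lower, and in 3 the groups overlapped. Among all tested genes, 27.2% had both NFATc2 libraries higher, and the difference in share was not tested. The median log2 fold change of the 10 was 0.27, but -0.01 in the fit that takes out GC content and exonic length.

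The ATG4 proteases prime ATG8 proteins and release them from lipid. ATG4B, the most active of them on LC3 proteins, had 48.7 and 50.6 CPM with NFATc2, against 65.9 and 54.9 CPM with NFATc2M, a log2 fold change of -0.28 (SE 0.13, adjusted p = 0.15 from edgeR). ATG4A had 9.81 and 10.2 CPM with NFATc2, against 6.38 and 9.10 CPM with NFATc2M, with a log2 fold change of 0.37 whose interval ran from -0.06 to 0.79. ATG4C had 145 and 191 counts in NFATc2 libraries, against 108 and 151 in NFATc2M libraries, with overlap in CPM and an interval from -0.16 to 0.78. ATG4D had 19.5 and 17.4 CPM with NFATc2, against 19.5 and 18.4 CPM with NFATc2M, with overlap. ATG4B alone of the 4 had both NFATc2 libraries below the NFATc2M libraries.

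Of the 5 receptors, none was called by edgeR (1 at an unadjusted p under 0.05), DESeq2 or limma voom. CALCOCO2 (NDP52), a receptor for bacteria and mitochondria, had 65.7 and 78.1 CPM with NFATc2, against 52.2 and 60.8 CPM with NFATc2M, without overlap. Its log2 fold change was 0.35 (SE 0.12, interval 0.10 to 0.59, adjusted p = 0.058 from edgeR). SQSTM1 had 51500 and 55440 counts in NFATc2 libraries, against 52544 and 51584 in NFATc2M libraries, with a log2 fold change of -0.03 and an interval from -0.23 to 0.17. As a ratio, the interval ran from 0.855 to 1.12. NBR1, a receptor of similar build to SQSTM1, had 112 and 118 CPM with NFATc2, against 100 and 103 CPM with NFATc2M (0.17, SE 0.11, adjusted p = 0.36). OPTN and TAX1BP1 also had both NFATc2 libraries above both NFATc2M libraries, with fold changes of 0.18 and 0.16 on the log2 scale, neither of which passed.

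Levels of different genes were compared as CPM per kb of exon. SQSTM1 was the highest of the 40 in every library, at 316 and 317 CPM per kb with NFATc2 and 330 and 316 CPM per kb with NFATc2M, and made up 85.8% to 88.4% of the CPM per kb of the 5 receptors. The median of the 40 genes was 7.95 CPM per kb, and the lowest was PIK3C3 at 1.21 CPM per kb. ATG10, the E2-like enzyme for ATG12, came after SQSTM1 with 49.5 CPM per kb, then WDR45B with 33.2 and ULK1 with 26.2 CPM per kb. The order of ULK1 and ATG9A (24.8 CPM per kb) is not set, since their libraries overlap.

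SQSTM1 and ATG10 each overlap a neighbouring gene. MRNIP on the opposite strand covers 21.0% of the exonic bases of SQSTM1, and had 40.6 to 43.3 counts for every 100 of SQSTM1 in the 4 libraries. RPS23, a ribosomal protein gene on the opposite strand, covers 6.87% of those of ATG10, which had 61.7 to 69.2 counts for every 100 of RPS23. The strand setting of the counting is not given in the sources used here. How reads in the shared bases were assigned is therefore not known, and the levels of these genes are uncertain.

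**Figure D2:**
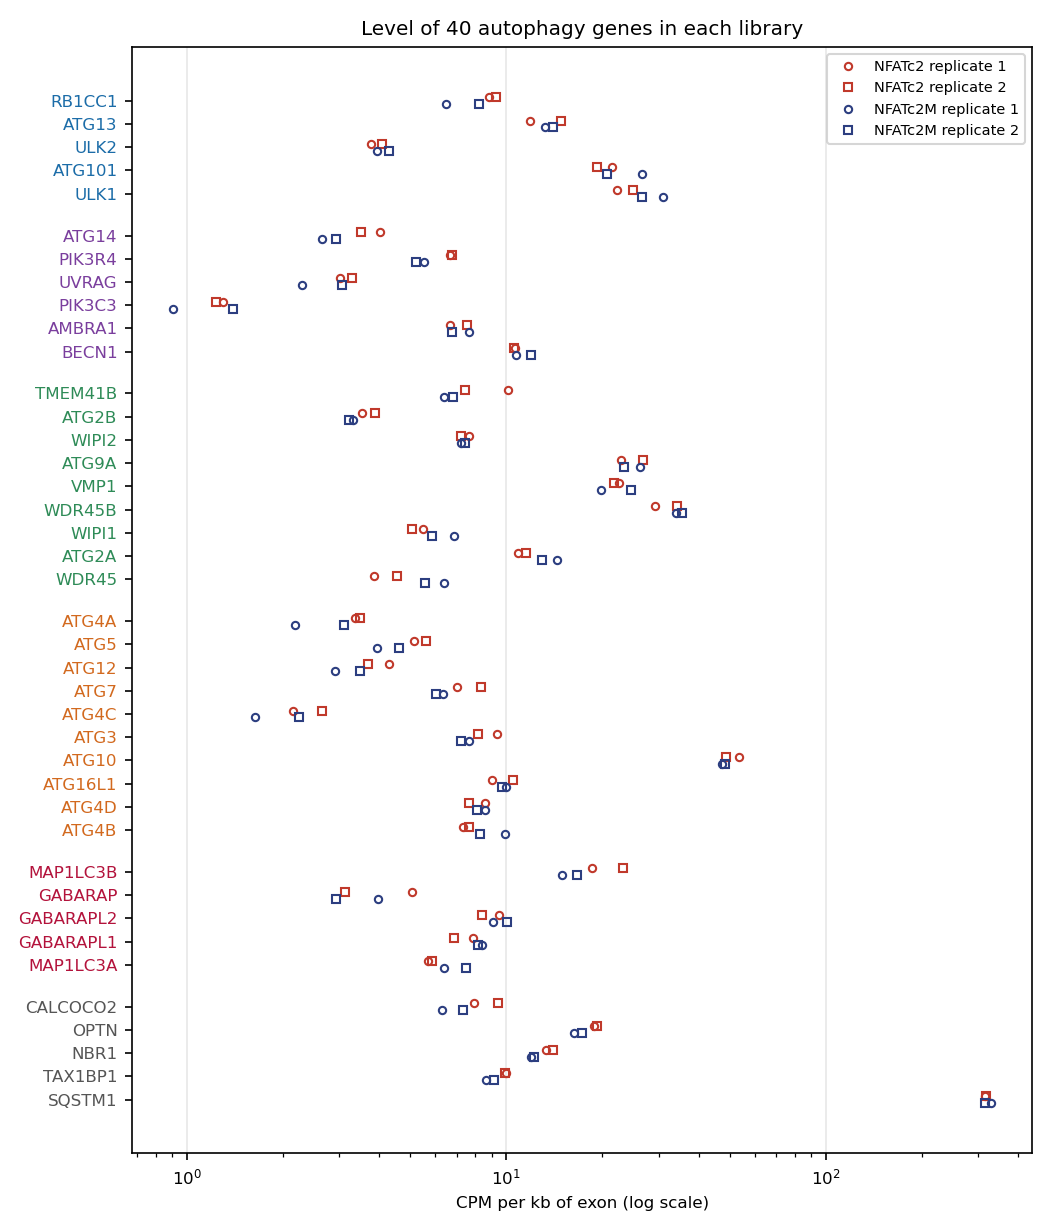
Level of each of the 40 genes in each of the 4 libraries, as CPM per kb of exon on a log axis, in the order and role groups of the fold change plot (name colours). Red marks are NFATc2 libraries and blue marks NFATc2M libraries; SQSTM1 lies near 320, and the median of the 40 is 7.95 CPM per kb.

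Ratios of paired genes were taken within each library, where scaling cancels. In 8 of the 9 pairs the NFATc2 and NFATc2M libraries did not overlap, but an exact two-sided permutation test on 2 against 2 libraries cannot go below p = 0.333, which each of the 8 reached (adjusted p = 0.375 over the 9 pairs). The pairs were chosen with earlier results known, the share of gene pairs in general that separate was not computed, and single genes already separate often (27.2% higher and 26.0% lower), so the 8 are a description of these pairs only. The log2 ratio of MAP1LC3A to MAP1LC3B was -3.83 and -4.12 with NFATc2, against -3.35 and -3.28 with NFATc2M, a mean difference of -0.66. That of ATG2B to ATG2A was -0.76 and -0.71 with NFATc2, against -1.25 and -1.15 with NFATc2M, a mean difference of 0.47. WDR45B had 5.71 and 5.69 counts per WDR45 count with NFATc2, against 4.03 and 4.81 with NFATc2M, a log2 difference of 0.37. ULK2 over ULK1 differed by 0.22, ATG4C over ATG4B by 0.59, ATG4A over ATG4D by 0.43, WIPI2 over WIPI1 by 0.28 and NBR1 over SQSTM1 by 0.20. GABARAPL1 over GABARAPL2 overlapped, with a difference of -0.07 (exact permutation p = 1). Most pairs differ in GC content, and the difference between the fold changes of the 2 genes with the GC content and length offset was near 0 or of the other sign for 5 of the 8 separated pairs, at 0.02 for ATG2B over ATG2A, -0.02 for ATG4C over ATG4B, -0.04 for ATG4A over ATG4D, -0.10 for ULK2 over ULK1 and -0.10 for NBR1 over SQSTM1. It was -0.43 for MAP1LC3A over MAP1LC3B, 0.33 for WIPI2 over WIPI1, 0.25 for WDR45B over WDR45 and -0.01 for GABARAPL1 over GABARAPL2.

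**Figure D3:**
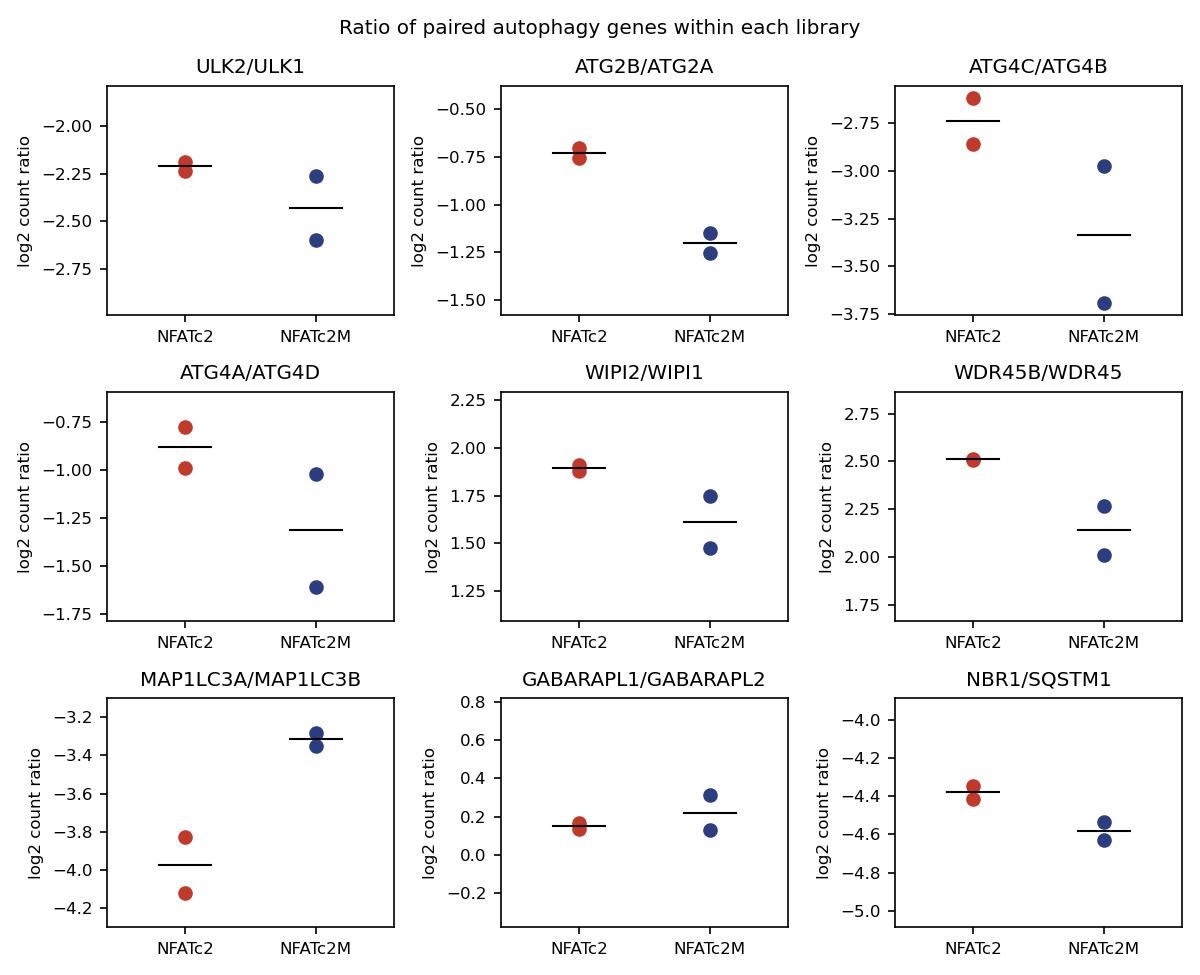
Log2 ratio of the counts of 9 gene pairs in each library (points), with the group mean (bar); each panel spans the same height on the log2 scale and the axes do not start at 0. In every pair except GABARAPL1/GABARAPL2 the 2 NFATc2 points lie on one side of the 2 NFATc2M points.

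Fold change moved with the GC content of the exons. Across the 40 genes, which are not independent replicates, Pearson's r was -0.69 and Spearman's rho -0.67. Across 17163 tested genes with a GC value, r was -0.46 and rho -0.56, so the trend is one of the whole table. All 6 members with 30% to 40% GC had a positive log2 fold change (median 0.30, against 0.29 for all genes in that bin), and none of the 4 with 60% to 70% did (median -0.27, against -0.26). ATG12, ATG3, RB1CC1, TMEM41B, ATG4C and PIK3C3 form the low-GC bin, and ULK1, ATG2A, ATG4D and MAP1LC3A the high-GC bin. The part of GC content in each result was not tested beyond a fit with an offset that takes out the dependence of every library on exonic GC and length.

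In that fit r across the 40 genes was 0.18 and their median log2 fold change was -0.0081. It called 351 genes, 2.01% of those tested, and MAP1LC3B alone of the 40 (0.48, adjusted p = 0.042 from edgeR). MAP1LC3B has 52.9% GC. In the bin from 50% to 55% GC the median of all genes was -0.08 without the offset, and 3 of the 5 members there had a positive fold change. WDR45 (56.9% GC) moved to -0.33 with an adjusted p of 0.22. ULK1 moved to -0.01, ATG2A to -0.02, TMEM41B to 0.09, RB1CC1 to -0.02, ATG14 to 0.31 and ATG7 to 0.30, none of them called. The sign turned for 12 of the 40 genes, all uncalled in both fits. Those now negative were RB1CC1, PIK3C3 (-0.17), ATG2B (-0.0034), ATG3 (-0.15), ATG4C (-0.09), ATG10 (-0.0050), ATG12 (-0.02) and TAX1BP1 (-0.01), and those now positive were AMBRA1 (0.02), ATG4D (0.28), MAP1LC3A (0.05) and SQSTM1 (0.17).

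**Figure D4:**
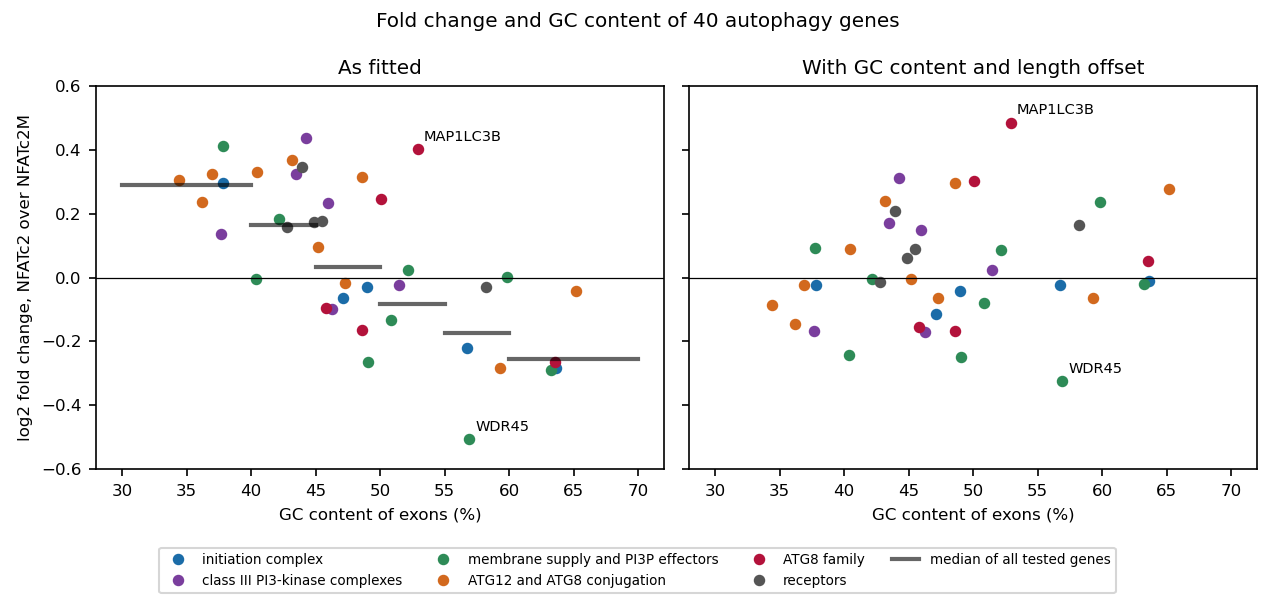
Log2 fold change of NFATc2 over NFATc2M against the GC content of exons for the 40 genes, coloured by role, as fitted (left) and with the GC content and length offset (right). Grey bars are medians of all tested genes in each GC bin, 0.29 at the lowest and -0.26 at the highest; MAP1LC3B is the highest point in the right panel.

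Single libraries set how many of the 40 genes were called. Without NFATc2M replicate 2 there were 8 calls, beside 10.8% of all tested genes: RB1CC1, CALCOCO2 and MAP1LC3B were higher and ATG2A, ATG101, ATG4B, ULK1 and WDR45 were lower. Without NFATc2M replicate 1 there were 0 calls among the 40, beside 0.400% of all tested genes. Without NFATc2 replicate 1 only MAP1LC3B was called (background 3.21%), and without NFATc2 replicate 2 only TMEM41B (background 1.75%). NFATc2M replicate 1 was the farther of the NFATc2M libraries from the NFATc2 group for ULK1, ATG101, RB1CC1, ATG4B and MAP1LC3B. These genes are among those called without NFATc2M replicate 2, a choice that favours such genes. The share over all genes was not computed, so this is a description only.

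**Figure D5:**
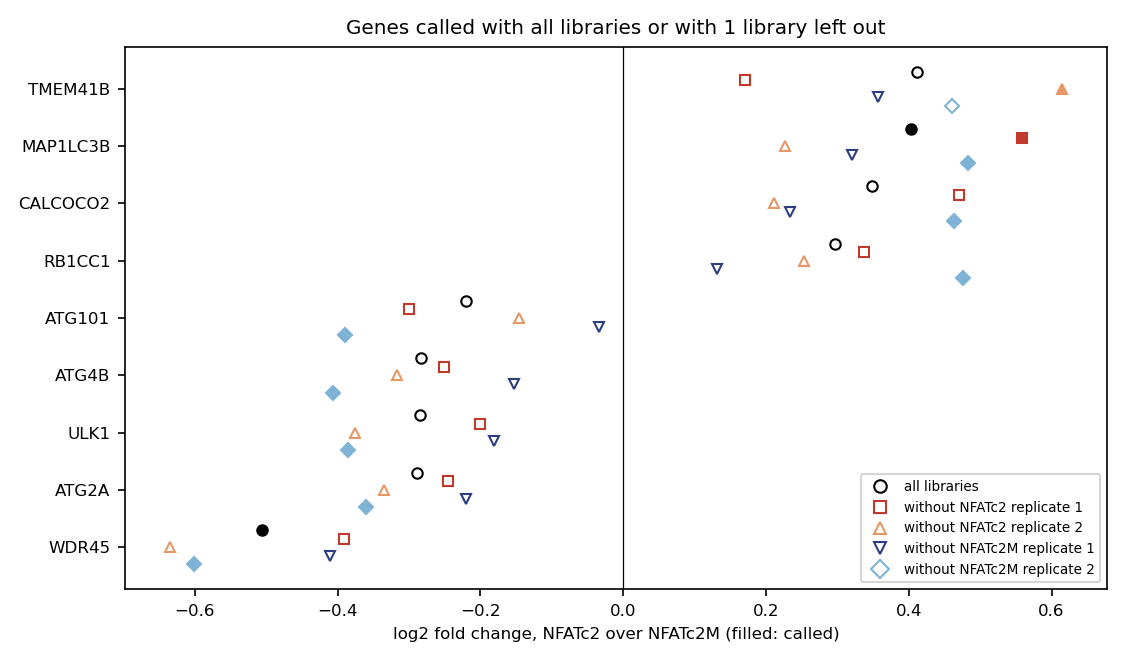
Log2 fold change of NFATc2 over NFATc2M for the 9 genes called with all libraries or with 1 library left out; a filled mark is a call. The blue diamonds, without NFATc2M replicate 2, hold 8 of the filled marks, and the blue triangles, without NFATc2M replicate 1, hold none.

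Further autophagy genes were read from lists of 57 genes, of which 53 were tested, 2 were called higher and 4 lower (11.3%, beside the background of 8.64%). Their median log2 fold change was 0.08. RTN3, a reticulon that acts as a receptor for tubular endoplasmic reticulum, rose with 190 and 199 CPM with NFATc2, against 127 and 142 CPM with NFATc2M (0.53, SE 0.11, adjusted p = 0.00033 from edgeR). PRKAA1, the alpha-1 catalytic subunit of AMPK, which activates ULK1, rose with 68.0 and 70.8 CPM with NFATc2, against 46.2 and 56.7 CPM with NFATc2M (0.43, adjusted p = 0.016). RTN3 was still called with the GC content and length offset (0.33, adjusted p = 0.031), and PRKAA1, with 36.5% GC, was not (0.07, adjusted p = 0.76).

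ULK3, a kinase related to ULK1, fell with 52.8 and 52.2 CPM with NFATc2, against 78.3 and 73.0 CPM with NFATc2M (-0.53, SE 0.12, adjusted p = 0.0020 from edgeR). CALCOCO1, a receptor for endoplasmic reticulum related to CALCOCO2, fell with 533 and 654 counts with NFATc2, against 760 and 865 counts with NFATc2M (-0.52, adjusted p = 0.012). TECPR1, a tether of autophagosomes to lysosomes, fell (-0.53, adjusted p = 0.015), as did VPS16 of the HOPS and CORVET tethers (-0.41, adjusted p = 0.047). With the offset CALCOCO1 was still called (-0.47, adjusted p = 0.049), while ULK3, TECPR1 and VPS16 were not, at -0.27, -0.28 and -0.20, and VPS18, of the same tethers, was called higher (0.42, adjusted p = 0.031). Of 7 listed regulators of autophagy transcription, TFEB and TFE3 among them, none was called by edgeR (1 at an unadjusted p under 0.05) or DESeq2, and limma voom called MITF. DESeq2 did not call VPS16. RTN3 was called without either NFATc2 library and without NFATc2M replicate 2, but not without NFATc2M replicate 1 (0.45, adjusted p = 0.092), where none of the 53 was. CALCOCO1 was lost whichever library was left out (adjusted p from 0.057 to 0.19 in edgeR). ULK3, TECPR1, VPS16 and PRKAA1 were lost when either NFATc2 library or NFATc2M replicate 1 was left out, with adjusted p from 0.051 to 0.096 for ULK3, 0.092 to 0.28 for TECPR1, 0.097 to 0.51 for VPS16 and 0.089 to 0.44 for PRKAA1.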

How the data were processed

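The sample labels gave 2 NFATc2 and 2 NFATc2M libraries, and the authors describe the cells as A549 induced with OPNc-CM. Alignment by the authors was to GRCh38 (HISAT2; SAMtools 1.18), HTSeq 0.11.2 assigned the reads to genes of Ensembl release 94, and the authors deposited whole-number counts without normalization. A further sheet has 4 value columns without sample names, holding the same values but placing the NFATc2M pair before the NFATc2 pair. It was not used, so the direction of every fold change rests on the named columns. The 5 HTSeq summary lines held 56.4% to 57.4% of each library's total (44.0% to 44.6% in no gene) and were left out.

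The test was edgeR 4.0.16 under R 4.3.3 (filterByExpr, TMM, robust estimateDisp and glmQLFit with legacy=TRUE, glmQLFTest) with 2 residual degrees of freedom. P-values were Benjamini-Hochberg adjusted over 17459 genes. CPM used TMM library sizes. GC content, coordinates and exonic length (for CPM per kb) came from GENCODE 44 on GRCh38. The offset removed each library's spline (5 degrees of freedom) of GC content and of length. Alternatives were DESeq2 1.42.0, limma voom 3.58.1, other scalings, filters and thresholds, the replicate number as a block, and each library left out, where a lone library is assumed to vary like the other group. The fit was tested on simulated data. Figures used matplotlib 3.10.9.

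The members and lists were chosen with earlier results of these data known. Named genes are the called members, the smallest p and the highest level in each role without a call, both genes of each pair and the called genes of the other lists. RB1CC1, ATG101, TMEM41B, VMP1, ATG9A, PIK3R4, PIK3C3, ATG5, ATG12, ATG3, GABARAP, OPTN and TAX1BP1 were added after their values were seen.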

Additional observations from a re-analysis of the deposited data

How the results depend on the processing

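Of 540 log2 fold changes of 30 members under 18 alternatives, 493 kept their direction and their side of the threshold, 10 lost the call, 14 gained one and 23 changed sign. The alternatives at an adjusted p of 0.01 and of 0.10 reuse the fold changes of the report, so no sign could change there. All but MAP1LC3B and WDR45 of the 30 were uncalled in the report, so most of the 493 only stayed uncalled with the same sign. For ATG4A, ATG4C and MAP1LC3A, DESeq2 gave no adjusted p. The 493 include these DESeq2 values although no call was possible. With 2 calls in the report, 1 member was called in DESeq2, 1 with the GC content and length offset and 1 with the replicate block and offset together, 0 at an adjusted p of 0.01 and 7 at 0.10, and leaving out a library gave 0 to 8. Of the other autophagy genes, 6 in the report, 3 were called with the offset and 3 with the block and offset, 2 at an adjusted p of 0.01 and 10 at 0.10, and 0 to 7 when a library was left out. The median of the members was -0.0081 with the offset and -0.011 with the block and offset. The calls over all genes differed by more than 1.5 times from 1508 with the offset (351), with the block and offset (313), without NFATc2 replicate 1 (584), without NFATc2 replicate 2 (318) and without NFATc2M replicate 1 (73). Upper quartile scaling called 662 genes higher and 864 lower, against 856 and 652 in the report.

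With the offset, and with the block and offset, the sign turned, among these 30 members, for ATG10 (-0.0050 and -0.0079), SQSTM1 (0.17 and 0.17), ATG2B (-0.0034 and -0.0014), ATG4C (-0.086 and -0.088), MAP1LC3A (0.053 and 0.061), ATG4D (0.28 and 0.28), RB1CC1 (-0.025 and -0.024), ATG12 (-0.023 and -0.029) and ATG3 (-0.15 and -0.14). WIPI2 was -0.011 with upper quartile scaling, -0.0073 with library size scaling and -0.014 to 0.059 when a library was left out (-0.0046 without NFATc2M replicate 1). With a library left out, ATG4D ran from -0.12 to 0.033, NFATC2 from -0.19 to 0.012, and the difference of the log2 ratio GABARAPL1/GABARAPL2 from -0.16 to 0.021. The cause of these moves was not tested.

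Same-numbered libraries deviated from their group means with a correlation of 0.041 over 17459 genes, so the numbers were not taken to pair them. With the replicate block, 3 members were called, with CALCOCO2 (adjusted p = 0.036) beside MAP1LC3B and WDR45, and 1759 genes in all. With 2 libraries a group, a log2 fold change had a standard error of 0.10 even for the most counted members. The largest were those of ATG4C, GABARAP and MAP1LC3A (0.23 to 0.24), which are among the least counted. The part of depth in this was not tested.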

Other observations

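Among the listed autophagy genes too low to test, ATG9B, the paralog of ATG9A, had 10 and 10 counts in NFATc2 libraries and 7 and 8 in NFATc2M libraries. MAP1LC3C had 0 and 9 counts in NFATc2 libraries and 2 and 0 in NFATc2M libraries, and MAP1LC3B2 had 2 counts in all.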
